A study of Mus musculus with 14 samples.

Results

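The adipokine genes Adipoq, Lep, Retn, Cfd, Rbp4, Nampt, Rarres2, Apln and Angptl4 were taken by symbol from a table of 23282 genes, and all 9 were found. They encode proteins that fat releases into blood. RNA of epididymal white adipose tissue (eWAT), the fat pad attached to the mouse epididymis, was sequenced from male wild type C57BL/6J mice that received a normal diet (control) or a Western diet (WD) for 20 weeks. Batch 1 held 4 control and 5 WD libraries, and batch 2 held 5 control libraries, numbered as control replicates 5 to 9. All WD libraries belonged to batch 1, so diet and batch cannot be told apart when WD is compared with the batch 2 controls. The batch 1 comparison is therefore the only one within a batch. The labels give no age of the mice and do not say what a batch was. Every group was whole tissue of 1 inbred strain and of males alone. For a bulk sample, fewer cells of a type and less RNA per cell cannot be told apart.

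Adipokines are the hormones and secreted proteins of fat. Leptin informs the hypothalamus of the fat stored, and its mRNA is made in adipocytes and is known to follow fat cell size. Adiponectin and adipsin (complement factor D) are abundant products of lean adipocytes and are known to fall in many models of obesity, while resistin, retinol binding protein 4, chemerin and visfatin (Nampt) have been linked to insulin resistance or to inflammation. Angiopoietin-like 4 inhibits lipoprotein lipase, and apelin acts on vessels and heart through its own receptor.

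Libraries held between 10278970 and 13712254 counts, and the floor below which a level could not be shown, set at 3 counts, stood for 0.212 to 0.324 CPM (counts scaled to a common library size). QuantSeq counts 1 fragment near the 3′ end of a transcript, so that a count does not grow with transcript length. CPM values were scaled with TMM factors. The 10 defining markers of adipocytes were checked because the tissue label rests on them, and each had a count in every library. Their geometric mean was 112 CPM in control replicate 1 and 426 to 1254 CPM in the others. Control replicate 1 also took 15.8% of its counts from 15 epididymis genes, which took at most 0.00571% of any other library. Within batch 1, values of the adipokine genes are therefore given with and without control replicate 1. The gene lists are given only with it, where it is among the controls. Control replicate 4 had a count for only 7999 genes, against up to 13780 elsewhere, and its summed macrophage markers reached 1348 CPM, against 145 to 535 CPM in the other 3 batch 1 controls. The 8 macrophage markers summed to 1224 to 1812 CPM in the WD libraries and to 214 to 507 CPM in the batch 2 controls. The part of these differences in the results below was not tested.

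**Figure D1:**
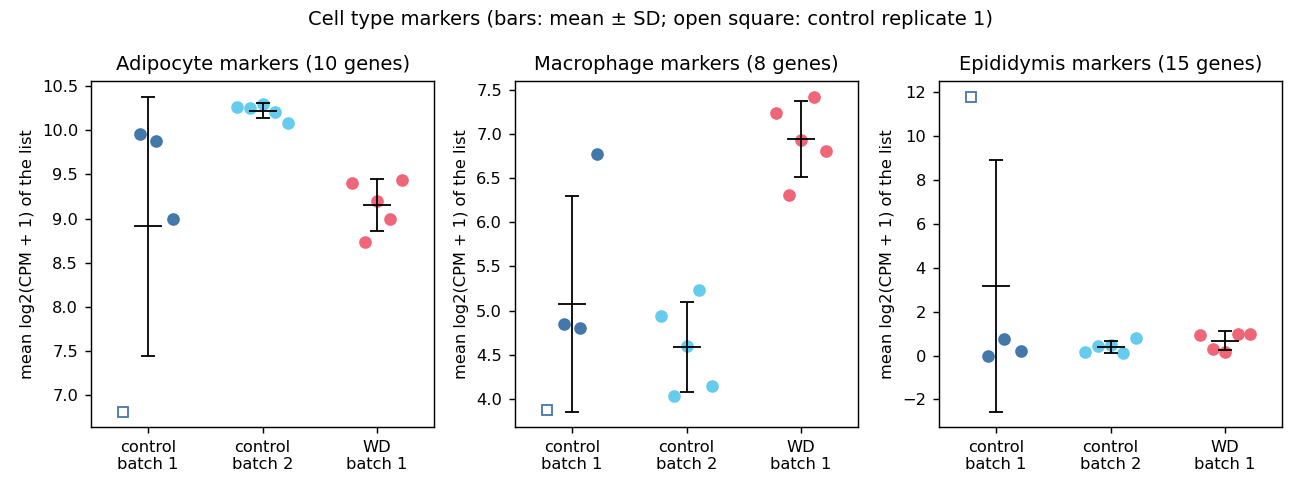
Mean log2(CPM + 1) of 10 adipocyte, 8 macrophage and 15 epididymis marker genes in each library (points), with the group mean and SD (bars). Control replicate 1 (open square) is the lowest in the adipocyte panel, at 6.81, and the highest in the epididymis panel, at 11.8. The 5 WD libraries lie below the 5 batch 2 controls in the adipocyte panel and above them in the macrophage panel.

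How many adipokine genes passed the test depended on the controls. In the main edgeR test (all libraries, TMM factors), calls were found against the batch 2 controls alone, where diet and batch cannot be told apart. When only genes that reached a CPM of 1 in every library were tested, edgeR also called 2 of the 9 against all controls. It then called 128 of the 5858 genes tested. Within batch 1, edgeR's quasi-likelihood test called 0 of the 9 adipokine genes at an FDR under 0.05 (Benjamini-Hochberg over all genes tested), and 0% of the 12157 genes tested. At an unadjusted p under 0.05 it gave 3 of the 9, namely Lep and Rarres2 higher and Cfd lower, where 5.17% of all genes passed. Scaled by adipocyte markers, 1 of the 9, Rarres2, had such a p, as did 772 of the 12157 genes. DESeq2 called 0 of the 9 and 114 of the 12157 genes. Against all 9 controls, edgeR called 0 of the 9 and 0.53% of 12653 genes (0.435% higher and 0.0948% lower). There 4 of the 9 and 7.73% of all genes had an unadjusted p under 0.05. DESeq2 called 3 of the 9 and 236 of the 12653 genes. Against the batch 2 controls, edgeR called 6 of the 9, Lep higher and Adipoq, Retn, Cfd, Rbp4 and Nampt lower. It called 6.4% of 12070 genes (3.93% higher and 2.48% lower). That split depended on the scaling. With TMM factors 474 genes were higher and 299 lower, and with scaling by adipocyte markers 5264 were higher and 39 lower. On the latter scale 4 of the 9 adipokine genes were called, namely Lep, Rarres2 and Angptl4 higher and Cfd lower. With TMM factors the 6 genes called had an unadjusted p under 0.05, as did 17.7% of all genes, and the same 6 did not overlap between the groups, as did 4.92% of all genes with WD higher and 3.99% with WD lower. All 9 genes passed the filter on low counts in these comparisons, Apln at a few counts. The 3 comparisons share the same 5 WD libraries, and their values are therefore given side by side and not as repeats.

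The batch 2 controls were also compared with the batch 1 controls, which had the same diet, and 8 adipokine genes were tested, Apln having too few counts. All 8 were fitted higher in batch 2 with TMM factors, but Lep, Nampt, Rarres2 and Angptl4 lower when scaled by adipocyte markers and Angptl4 lower with upper-quartile factors. EdgeR called 0 of the 8 and 0% of the 12106 genes. At an unadjusted p under 0.05 it gave Cfd and Rbp4, and 7.39% of all genes. DESeq2 called 0 of the 8 and 111 of the 12106 genes. The Adipoq, Cfd and Rbp4 levels of the batch 2 controls lay above all batch 1 controls, as did those of 4.02% of all genes, and 1.18% lay below. The largest fitted differences between the controls were those of Cfd, 1.65, Rbp4, 1.24, and Adipoq, 1.23, on the log2 scale. Without control replicate 1, Lep and Angptl4 were fitted lower in batch 2, at -0.21 and -0.23. The 9 genes together took 0.252% of the counts in control replicate 1. Their share was 1.199% to 2.19% in its 3 batch mates. They took 0.926% to 1.48% in the WD libraries and 2.65% to 3.83% in the batch 2 controls, which lay above every other library.

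**Figure D2:**
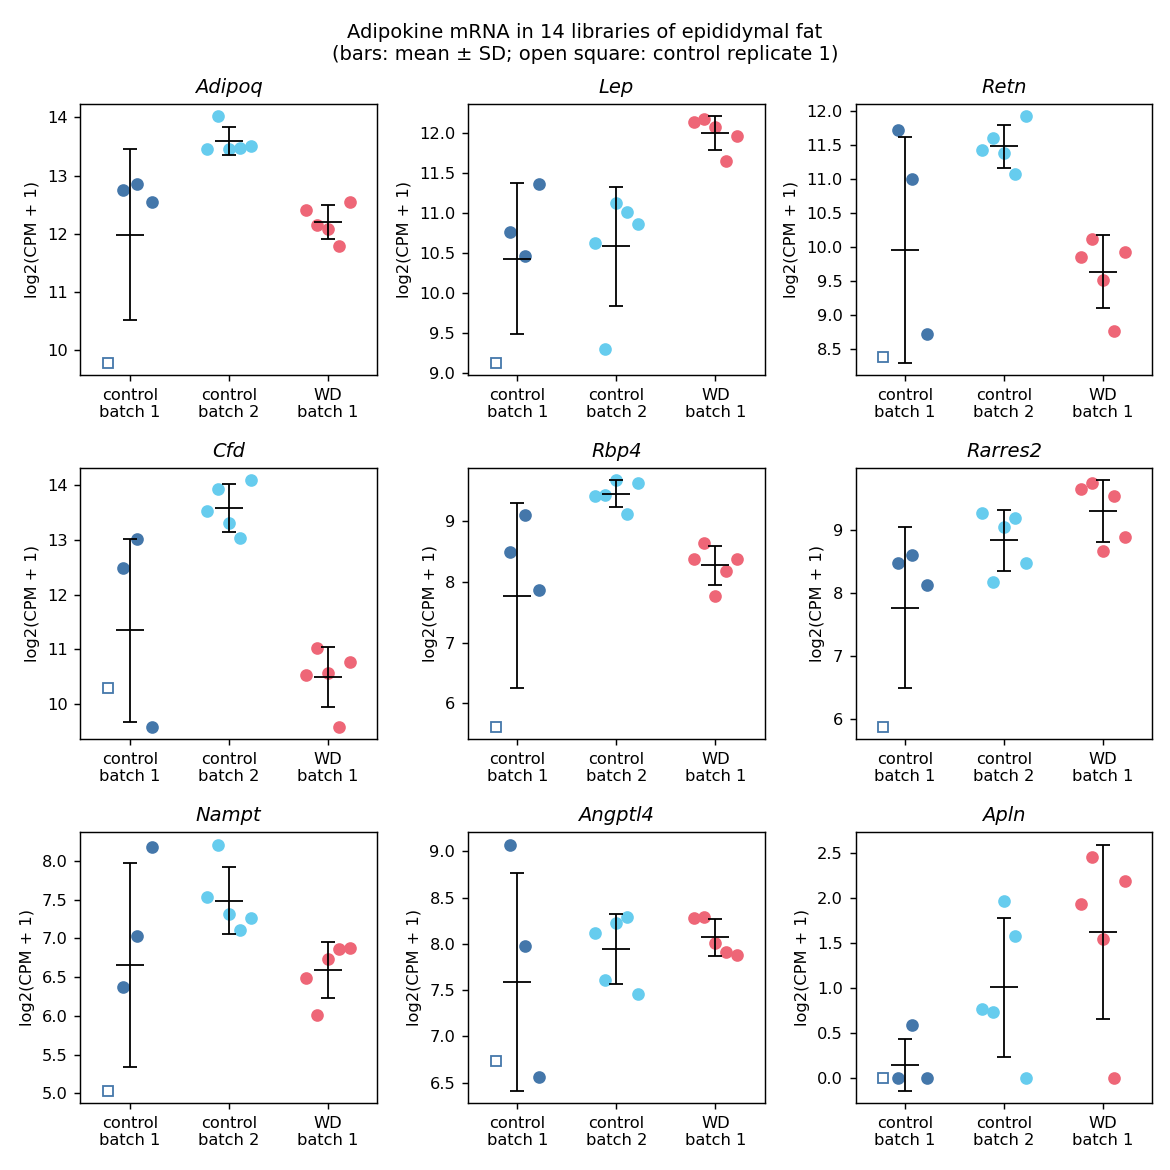
Level of each adipokine mRNA as log2(CPM + 1) in the 14 libraries (points), with the group mean and SD (bars), and control replicate 1 as an open square. For Lep the 5 WD libraries lie above all 9 controls. For Cfd they lie below the batch 2 controls and overlap the batch 1 controls, whose SD is the widest of the 3 groups.

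Lep, the leptin gene, had more counts in all 5 WD libraries than in all 9 controls, and edgeR's main test called it against the batch 2 controls alone. The 300 bases around its start are shown because no other member separated the WD libraries from every control in CPM (RefSeq, GRCm38.p6, chr6:29059971-29060270, + strand, 250 bases before the start and 50 after it). Capitals mark a GC box (GGGCGG) at 98 bases before the start and the palindrome TTGCGCAA, a match to the paired C/EBP half-sites TTGCNNAA on both strands, at 55 bases before it.
Lep: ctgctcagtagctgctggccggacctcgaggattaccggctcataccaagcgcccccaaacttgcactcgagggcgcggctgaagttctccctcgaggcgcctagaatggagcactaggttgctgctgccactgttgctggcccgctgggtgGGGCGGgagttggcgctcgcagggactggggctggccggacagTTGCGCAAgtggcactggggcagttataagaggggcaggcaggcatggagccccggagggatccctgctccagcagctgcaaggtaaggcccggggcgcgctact
Over 32851 mouse promoters of the same length and on both strands, 35.7% held GGGCGG and 10.8% held TTGCNNAA. These matches describe the letters and do not show that a factor bound.

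Lep (chromosome 6, 29060221 to 29073876, + strand of GRCm38) was counted 5200, 20774, 17009 and 36339 times in control replicates 1 to 4, and 64106, 43044, 58367, 40769 and 47977 times in WD replicates 1 to 5. The batch 2 controls had 22396, 6614, 29743, 27142 and 18679 counts. All 5 WD libraries exceeded all 9 controls. Scaled to the library, Lep stood at 562, 1733, 1418 and 2638 CPM in the batch 1 controls, at 4525, 4618, 4319.9, 3227 and 3998 CPM in WD, and at 1582, 630.4, 2227, 2074 and 1865 CPM in the batch 2 controls. The batch 1 controls averaged 1587 ± 857 CPM (SD, n = 4). The WD mean of 4138 ± 562 CPM (SD, n = 5) was 2.61 times as high, and the batch 2 controls averaged 1675 ± 632 CPM (SD, n = 5). The log2 fold change of WD was 1.38 (standard error 0.47, FDR = 0.593) within batch 1, 1.32 (standard error 0.33, FDR = 0.0898) against all 9 controls and 1.29 (standard error 0.27, FDR = 0.00611) against the batch 2 controls, by edgeR. Control replicate 4 was the highest and control replicate 1 the lowest of the batch 1 controls.

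The exact two-sided permutation test of log2(CPM + 1), unadjusted, gave a difference of 1.57 for Lep within batch 1 (p = 0.00794, the smallest that 4 against 5 libraries allow). Without control replicate 1 the difference was 1.14 (exact permutation p = 0.0179, again the smallest possible), and edgeR gave 1.10 (standard error 0.30, FDR = 0.456). Groups that did not overlap, WD higher, were found for 3.01% of all genes within batch 1, with all 4 controls. Against all 9 controls they were found for 1.09% (0.253% with WD lower). With all 9 controls the difference was 1.48 (exact permutation p = 0.00150). Leaving out control replicate 1 there brought Lep under the FDR threshold, at 1.23 (standard error 0.25, FDR = 0.0156) by edgeR, and leaving out control replicate 4 did so too, at 1.44 (standard error 0.33, FDR = 0.0235). Scaled by adipocyte markers, Lep gave 1.14 (standard error 0.69, FDR = 0.719) within batch 1, 1.70 (standard error 0.52, FDR = 0.567) against all 9 controls and 2.39 (standard error 0.33, FDR = 7.17e-05) against the batch 2 controls, by edgeR. The median log2 fold change of all genes on that scale was -0.76, -0.0656 and 1.09 in the same order. DESeq2 gave an FDR of 0.00176 with all 9 controls and of 0.0564 within batch 1.

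None of the 8 genes of leptin signalling listed with Lep (the receptor Lepr, its kinase Jak2, the factors Stat3, Stat5a and Stat5b, the brakes Socs3 and Ptpn1, and the adaptor Sh2b1) passed edgeR's test in any comparison, nor an unadjusted p under 0.05 in the comparisons of diets. The median log2 fold change of the list was -0.61 within batch 1 and -0.46 against the batch 2 controls, where that of all genes tested was 0.03 and -0.00342. Stat3, which carries the leptin signal to the nucleus, was at 106 ± 44.7 CPM in batch 1 controls, 75.7 ± 30.3 CPM in WD and 89.1 ± 12.5 CPM in batch 2 controls. Ptpn1, a phosphatase that ends the signal, was at 61.8 ± 15.6 CPM, 60.4 ± 13.02 CPM and 63.01 ± 23.3 CPM in the same order. These values lay within the spread between libraries.

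Adiponectin mRNA was lower in WD than in every batch 2 control, and in batch 1 the groups overlapped through control replicate 1. The promoter is shown for contrast with that of Lep (RefSeq, GRCm38.p6, chr16:23146286-23146585, + strand). Capitals mark 3 CCAAT boxes (CCAAT, or ATTGG on the other strand), at 34, 27 and 7 bases before the start.
Adipoq: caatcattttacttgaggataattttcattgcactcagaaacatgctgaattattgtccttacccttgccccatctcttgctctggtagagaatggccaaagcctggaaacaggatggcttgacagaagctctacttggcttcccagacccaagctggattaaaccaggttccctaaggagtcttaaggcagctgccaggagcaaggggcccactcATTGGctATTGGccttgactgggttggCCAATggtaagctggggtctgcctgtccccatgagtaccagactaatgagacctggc
Of all promoters, 37.4% held CCAAT on either strand. The window held neither a GC box nor the paired C/EBP half-sites. It also lacked the TATA box letters (TATAAA), which 13.6% of all promoters held, and the nuclear receptor half-site (AGGTCA), which 16.3% held.

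Adipoq (chromosome 16, 23146536 to 23157968, + strand) stood at 882, 6921, 7391 and 6011 CPM in the batch 1 controls and at 5451, 4565, 4342, 3544 and 5952 CPM in the WD libraries. The batch 2 controls had 11272, 16663, 11298, 11435 and 11716 CPM. Control replicate 1 lay far under every other library, and the batch 2 controls lay above all others. Group means were 5301 ± 3002 CPM (SD, n = 4), 4771 ± 947 CPM (SD, n = 5) and 12477 ± 2347 CPM (SD, n = 5), in that order, and 6774 ± 702 CPM (SD, n = 3) for batch 1 controls without replicate 1. By edgeR, the log2 fold change of WD was -0.15 (standard error 0.56, FDR = 1.00) within batch 1, -0.98 (standard error 0.47, FDR = 0.646) against all controls and -1.40 (standard error 0.19, FDR = 0.000306) against the batch 2 controls. Within batch 1 the difference of mean log2(CPM + 1) was 0.21, opposite in sign to edgeR's estimate (exact permutation p = 0.952). Without control replicate 1 it was -0.52 (exact permutation p = 0.0357; smallest possible 0.0179), with all 5 WD libraries below the 3 controls left, and edgeR gave -0.51 (standard error 0.28, FDR = 0.912). With all 4 controls, where Adipoq overlapped, non-overlapping groups with WD lower made up 0.855% of all genes in batch 1. That share was not computed without control replicate 1.

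Against all controls without replicate 1, Adipoq passed edgeR's test, at -1.11 (standard error 0.26, FDR = 0.0351). Adipocyte markers moved with it. Of the 10 adipocyte markers, 7 were called lower in WD against the batch 2 controls and 0 of the 10 within batch 1. Fabp4, the most abundant of them, was not called, with -0.32 (standard error 0.25, FDR = 0.613), whereas Plin1, which coats the lipid droplet, was called at -1.19 (standard error 0.18, FDR = 0.000659). When libraries were scaled by these 10 markers instead of TMM, Adipoq against the batch 2 controls gave -0.33 (standard error 0.23, FDR = 0.260) and no longer passed, while the median of all genes moved to 1.09. Directions of gene lists against the batch 2 controls are given on the TMM scale and shift by that amount on the other.

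Of the 6 genes listed for assembly and release of adiponectin in the endoplasmic reticulum, 5 were found and tested, and 0 of the 5 were called, or had an unadjusted p under 0.05, in any comparison. P4hb, a disulfide isomerase, was at 192 ± 59.9 CPM in the batch 1 controls, 178 ± 33.3 CPM in WD and 135 ± 10.97 CPM in the batch 2 controls. Plod3, a lysyl hydroxylase, was at 48.2 ± 21.4 CPM, 54.2 ± 18.9 CPM and 55.1 ± 5.48 CPM. Among 11 adipokine receptor genes, 9 were tested within batch 1 and 8 against the batch 2 controls. Against the batch 2 controls 6 of the 8 were fitted higher in WD, but the 2 called there were both lower. EdgeR called 0 within batch 1 or against all controls, where 2 and 0 had an unadjusted p under 0.05. The 2 within batch 1, Ccrl2 and Aplnr, were fitted higher. Their means were 4.32 and 4.93 CPM in WD and 0 CPM in the batch 1 controls. Adipor2, a receptor of adiponectin, had 659 ± 47.3 CPM in WD and 1009 ± 174 CPM in the batch 2 controls, with -0.63 (standard error 0.17, FDR = 0.0330) by edgeR on the log2 scale. Within batch 1 the controls had 675 ± 414 CPM, and the fold change was -0.04 (standard error 0.42, FDR = 1.00).

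Cfd encodes adipsin, the serine protease that starts the alternative complement pathway, and was the member with the highest ratio of its highest to its lowest CPM over the libraries, Apln with its libraries at 0 aside. Its promoter is shown because its mRNA had the largest difference in the comparison with the batch 2 controls (RefSeq, GRCm38.p6, chr10:79890603-79890902, + strand). None of the 5 motifs searched, those named for Lep and Adipoq, was in this window on either strand, so no base is in capitals.
Cfd: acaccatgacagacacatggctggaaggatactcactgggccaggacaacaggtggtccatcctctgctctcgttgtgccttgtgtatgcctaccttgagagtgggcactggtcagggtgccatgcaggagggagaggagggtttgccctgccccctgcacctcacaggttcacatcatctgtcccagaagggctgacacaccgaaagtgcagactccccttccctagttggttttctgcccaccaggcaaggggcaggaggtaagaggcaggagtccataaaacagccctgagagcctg
The window of Retn held none of the 5 either. An absent match says only that these letters were not in the window.

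Cfd (chromosome 10, 79890853 to 79892660, + strand) was counted 11627, 68763, 99005 and 10619 times in control replicates 1 to 4 and 20912, 19468, 20508, 9749 and 20909 times in WD replicates 1 to 5. In the batch 2 controls it had 165982, 163711, 134537, 108774 and 173511 counts. In CPM, the batch 1 controls were at 1256, 5736, 8253 and 771, WD at 1476, 2089, 1518, 772 and 1742, and the batch 2 controls at 11721, 15604, 10072, 8311 and 17320.0. The batch 1 controls split into replicates 2 and 3, above every WD library, and replicates 1 and 4, within or at the edge of the WD range. Means were 4004 ± 3608 CPM (SD, n = 4) in batch 1 controls, 1519 ± 483 CPM (SD, n = 5) in WD and 12606 ± 3770.4 CPM (SD, n = 5) in batch 2 controls. The mean of the batch 2 controls was 8.30 times that of WD, and the mean of the batch 1 controls 2.64 times. EdgeR gave -1.40 (standard error 0.63, FDR = 0.950) within batch 1, -2.55 (standard error 0.62, FDR = 0.0765) against all controls and -3.07 (standard error 0.28, FDR = 9.78e-06) against the batch 2 controls, as log2 fold changes.

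Within batch 1 the Cfd groups overlapped, and their mean log2(CPM + 1) differed by -0.85 (exact permutation p = 0.333). Without control replicate 1 they differed by -1.20 (exact permutation p = 0.179), and edgeR's fold change was -1.70 (standard error 0.55, FDR = 0.577). Without control replicate 3 it was -0.80 (standard error 0.62, FDR = 0.999), and with 1 library left out it ran from -1.76 to -0.80, with no call. Without both control replicates 1 and 4, edgeR called Cfd and Retn lower within batch 1, with -2.20 (standard error 0.34, FDR = 0.00754) and -1.70 (standard error 0.34, FDR = 0.0355), against 2 controls, and 108 genes in all. Against all controls, leaving out replicate 1 alone gave -2.68 (standard error 0.51, FDR = 0.00927) and leaving out replicate 4 alone -2.70 (standard error 0.51, FDR = 0.00647). Scaled by the adipocyte markers, Cfd still passed against the batch 2 controls, at -1.96 (standard error 0.33, FDR = 0.000350).

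The other genes of the alternative complement pathway did not follow Cfd. Of 7 listed, 6 were tested, and all 6 were fitted higher in WD against the batch 2 controls, with 2 called and 4 at an unadjusted p under 0.05. Within batch 1, 0 were called and 2 had such a p. C3, the central protein that the pathway cleaves, was at 639.6 ± 218 CPM in WD, 314 ± 75.1 CPM in batch 2 controls and 239 ± 121 CPM in batch 1 controls. EdgeR gave 1.01 (standard error 0.24, FDR = 0.0161) against the batch 2 controls and 1.42 (standard error 0.44, FDR = 0.546) within batch 1. C3ar1, the receptor of the C3a fragment, which macrophages are known to carry, was at 299.8 ± 60.3 CPM in WD and 36.7 ± 6.72 CPM in batch 2 controls, with 3.02 (standard error 0.21, FDR = 1.04e-06). Within batch 1 it gave 1.44 (standard error 0.74, FDR = 1.00), the controls being at 110.2 ± 161 CPM. The median log2 fold change of the list was 0.75 against the batch 2 controls and 1.27 within batch 1, beside -0.00342 and 0.03 for all genes tested.

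**Figure D3:**
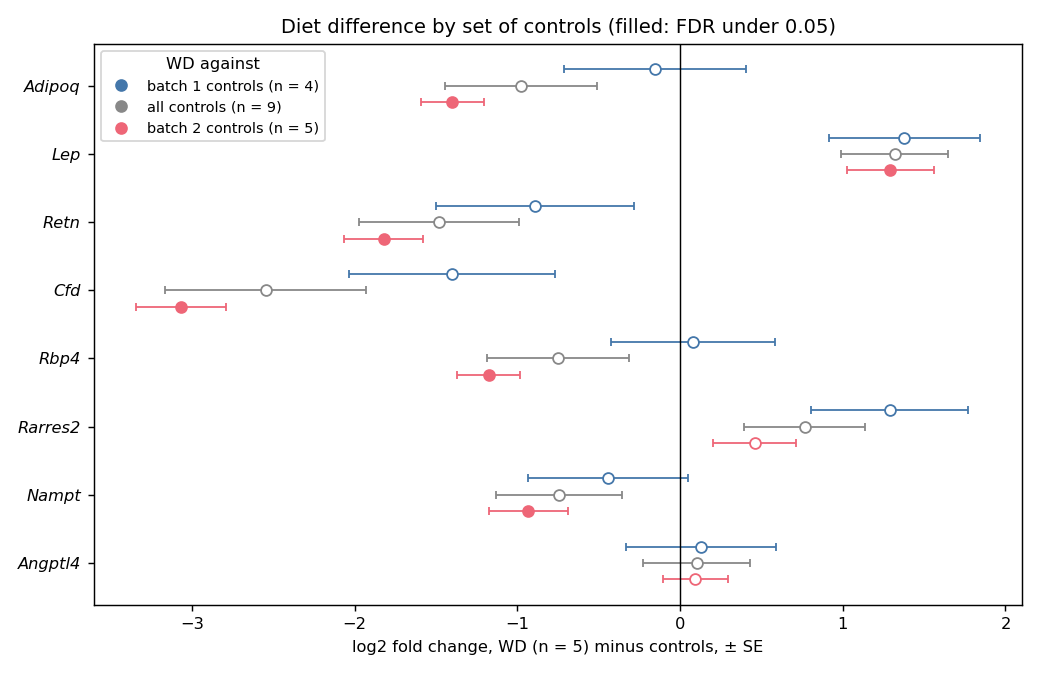
Log2 fold change of WD (n = 5) against 3 sets of controls for 8 adipokine genes, with the standard error; filled points had an FDR under 0.05 by edgeR. Lep lies at 1.29 to 1.38 with each set of controls, whereas Cfd runs from -1.40 in batch 1 to -3.07 against the batch 2 controls. Apln, at a few counts, is not drawn.

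Retn encodes resistin, which in mice is made by adipocytes. Retn (chromosome 8, 3655770 to 3659818, + strand) was at 333, 3374, 2047 and 420.1 CPM in the batch 1 controls and at 925, 1112, 731, 435 and 971 CPM in WD. The batch 2 controls were at 2755, 3123, 2673, 2147 and 3890.3 CPM, all above the WD libraries. As for Cfd, control replicates 2 and 3 lay above all WD libraries. Control replicates 1 and 4 lay below all WD libraries for Retn. Means were 1543 ± 1453 CPM (SD, n = 4), 835 ± 262 CPM (SD, n = 5) and 2918 ± 646 CPM (SD, n = 5) in batch 1 controls, WD and batch 2 controls. The log2 fold change by edgeR was -0.89 (standard error 0.61, FDR = 1.00) within batch 1, -1.48 (standard error 0.49, FDR = 0.292) with all controls and -1.82 (standard error 0.24, FDR = 0.000222) with the batch 2 controls. Leaving out control replicate 1 gave -1.22 (standard error 0.50, FDR = 0.725) within batch 1 and -1.61 (standard error 0.38, FDR = 0.0376) with all controls, the latter a call. Within batch 1 it was -0.18 (standard error 0.58, FDR = 0.999) without control replicate 2, and with 1 library left out it ran from -1.22 to -0.18, with no call. Exact permutation of log2(CPM + 1) gave p = 0.706 within batch 1 and p = 0.00794 against the batch 2 controls, the smallest possible there. Against all controls exact permutation gave p = 0.0864, and p = 0.0163 without control replicate 1. With scaling by adipocyte markers, Retn missed the threshold against the batch 2 controls, at -0.72 (standard error 0.29, FDR = 0.0549).

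Rbp4 carries retinol in plasma. Its gene (chromosome 19, 38116620 to 38125321, - strand) gave 48.1, 357, 546 and 233 CPM in the batch 1 controls and 330.2, 399, 217, 289 and 332 CPM in WD. In the batch 2 controls it gave 679, 683, 812, 555 and 785 CPM, above every WD library and every batch 1 control. The batch 1 controls had 296 ± 209.6 CPM (SD, n = 4), close to the 314 ± 66.7 CPM (SD, n = 5) of WD, and the batch 2 controls had 702 ± 102 CPM (SD, n = 5). EdgeR's log2 fold change was 0.08 (standard error 0.50, FDR = 1.00) within batch 1 and -1.18 (standard error 0.19, FDR = 0.00118) against the batch 2 controls. Without control replicate 1 the estimate within batch 1 turned, to -0.27 (standard error 0.30, FDR = 1.00). Against all controls the difference of mean log2(CPM + 1) was -0.43 (exact permutation p = 0.531), and -0.82 without that library (exact permutation p = 0.0241). Scaling by adipocyte markers brought the estimate against the batch 2 controls to -0.06 (standard error 0.26, FDR = 0.869).

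Of the 7 genes of retinol transport and storage listed with Rbp4, 5 were tested and 0 were called in any comparison by edgeR. Against the batch 2 controls 1 had an unadjusted p under 0.05, and 0 within batch 1. Dhrs3, which turns retinal back to retinol, was at 197 ± 53.2 CPM in WD, 129 ± 4.21 CPM in batch 2 controls and 124 ± 125 CPM in batch 1 controls, with 0.60 (standard error 0.20, FDR = 0.0935) against the batch 2 controls. Aldh1a1, which oxidises retinal to retinoic acid, was at 144 ± 32.996 CPM, 160.5 ± 30.05 CPM and 239.9 ± 222 CPM in the same order.

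Rarres2 encodes chemerin, which attracts immune cells through its receptor Cmklr1. Within batch 1 it was higher in every WD library than in every control. Rarres2 (chromosome 6, 48569698 to 48572670, - strand) was at 57.7, 354, 386 and 277 CPM in the batch 1 controls and at 805, 858, 404, 746 and 475 CPM in WD. The batch 2 controls, at 619, 289, 530.0, 581 and 356 CPM, overlapped both. Means were 269 ± 148 CPM (SD, n = 4), 658 ± 205 CPM (SD, n = 5) and 475 ± 145 CPM (SD, n = 5). The exact permutation test of log2(CPM + 1) within batch 1 gave a difference of 1.53 (p = 0.00794), and 0.90 without control replicate 1 (exact permutation p = 0.0357), still with no overlap. With all 4 controls, 3.01% of all genes did not overlap with WD higher, and that share was not computed without control replicate 1. EdgeR gave 1.29 (standard error 0.48, FDR = 0.744) within batch 1, 0.77 (standard error 0.37, FDR = 0.657) with all controls and 0.46 (standard error 0.26, FDR = 0.401) with the batch 2 controls. Scaled by adipocyte markers, the last of these passed the threshold, at 1.60 (standard error 0.32, FDR = 0.00122). The median of all genes was 1.09 with that scaling, and 5264 of 12070 genes were called higher.

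The value of Rarres2 cannot be told apart from that of Lrrc61. Lrrc61 (chromosome 6, 48554799 to 48570722, + strand) overlaps the 3′ end of Rarres2 on the opposite strand, the counting is not stated to use strand, and the ratio of the 2 counts was 0.913 to 1.16 in every library. Cmklr1 was called lower in WD against the batch 2 controls. Its mRNA was at 125 ± 22.7 CPM in WD, 263 ± 47.3 CPM in batch 2 controls and 151 ± 133 CPM in batch 1 controls, with -1.09 (standard error 0.19, FDR = 0.00197) against the batch 2 controls and -0.28 (standard error 0.55, FDR = 1.00) within batch 1, by edgeR.

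Nampt encodes the enzyme that makes nicotinamide mononucleotide in NAD salvage, and its secreted form is visfatin. Nampt (chromosome 12, 32820335 to 32853369, + strand) was at 31.6, 81.9, 129.8 and 288 CPM in batch 1 controls, with replicate 4 the highest. WD had 88.5, 63.5, 105, 116 and 117 CPM and the batch 2 controls 185, 295, 159, 136 and 152 CPM, all above WD. Means were 133 ± 111 CPM (SD, n = 4), 97.9 ± 22.3 CPM (SD, n = 5) and 185 ± 63.8 CPM (SD, n = 5). Against all controls the mean log2(CPM + 1) differed by -0.52 (exact permutation p = 0.280), and by -0.78 without control replicate 1 (exact permutation p = 0.0264). Within batch 1 the differences were -0.06 (exact permutation p = 0.913) and, without that library, -0.60 (exact permutation p = 0.232). The log2 fold change was -0.44 (standard error 0.49, FDR = 1.00) within batch 1 and -0.93 (standard error 0.24, FDR = 0.0290) against the batch 2 controls by edgeR. That call was lost when control replicate 5 or 6, or WD replicate 1 or 3, was left out, with FDRs of 0.0642, 0.0915, 0.0779 and 0.0589 in that order. It also turned to 0.14 (standard error 0.26, FDR = 0.672) with scaling by adipocyte markers. The lincRNA gene Gdap10 overlaps Nampt on the same strand, and reads of the stretch they share cannot be told apart.

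Of 8 other genes of NAD metabolism, 7 were tested within batch 1 and against the batch 2 controls, and edgeR called 0 in each comparison. Of the 7, all were fitted lower against the batch 2 controls, 1 with an unadjusted p under 0.05, and 5 of the 7 within batch 1, 0 with such a p. Nnmt, which methylates nicotinamide, was at 101 ± 27.9 CPM in WD, 162 ± 31.998 CPM in batch 2 controls and 81.6 ± 49.1 CPM in batch 1 controls, with -0.70 (standard error 0.22, FDR = 0.0805) against the batch 2 controls. Nadk, which makes NADP, was at 74.1 ± 33.05 CPM, 108 ± 23.8 CPM and 57.4 ± 32.2 CPM.

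With TMM factors, Angptl4 and Apln passed the test in no comparison. Angptl4 (chromosome 17, 33774900 to 33781575, - strand) was at 105, 538, 250.5 and 93.4 CPM in the batch 1 controls, 309, 313, 256, 240.1 and 234 CPM in WD and 277, 194, 298, 312 and 175 CPM in the batch 2 controls. The WD libraries lay close together, and the batch 1 controls spread from below to above all of them. Within batch 1 the mean log2(CPM + 1) differed by 0.49 (exact permutation p = 0.317), and by 0.20 without control replicate 1 (exact permutation p = 0.661). Means were 247 ± 207 CPM (SD, n = 4), 270.4 ± 37.9 CPM (SD, n = 5) and 251.3 ± 62.4 CPM (SD, n = 5), and edgeR's log2 fold change was 0.13 (standard error 0.46, FDR = 1.00) within batch 1 and 0.09 (standard error 0.20, FDR = 0.907) against the batch 2 controls. With scaling by adipocyte markers the latter was 1.21 (standard error 0.26, FDR = 0.00167), past the threshold. On that scale the median of all genes was 1.09, close to the value of Angptl4, and 5264 of 12070 genes were called higher. Lpl, the lipase that Angptl4 inhibits, was at 6919.8 ± 799 CPM in WD, 9627 ± 1087 CPM in batch 2 controls and 4725 ± 2844 CPM in batch 1 controls, with -0.49 (standard error 0.17, FDR = 0.104) against the batch 2 controls. Sel1l, needed for Lpl to leave the endoplasmic reticulum, was at 167 ± 56.5 CPM, 140.5 ± 24.5 CPM and 138 ± 40.1 CPM. Of the 7 genes listed around Lpl, 6 were found and tested, and edgeR called 0 in each comparison, 1 having an unadjusted p under 0.05 against the batch 2 controls.

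Apln (chromosome X, 48025146 to 48034852, - strand) had 0, 0, 6 and 0 counts in control replicates 1 to 4. It had 40, 42, 26, 0 and 43 counts in the WD libraries and 10, 7, 39, 26 and 0 counts in the batch 2 controls. Counts above 3 were found in 1 of 4, 4 of 5 and 4 of 5 libraries. Exact permutation within batch 1, on log2(CPM + 1), gave p = 0.0556, and p = 0.107 without control replicate 1. No edgeR comparison called it, with FDRs of 1.00, 0.981 and 0.830 within batch 1, against all controls and against the batch 2 controls. A fold from these counts depends on the value added to them and is not given.

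Ratios within a library do not depend on its scaling. Each count was therefore divided by the Adipoq count of the same library, an alternative chosen after the data were seen, which shows unequal change between 2 genes and not which of them changed. Adipoq itself had a lower CPM in every WD library than in each control except replicate 1. The share of all genes whose ratio to Adipoq did not overlap was not computed. For each 1000 counts of Adipoq there were 637, 250.4, 192 and 439 counts of Lep in the batch 1 controls and 830.2, 1012, 995, 911 and 672 in WD. The batch 2 controls had 140.3, 37.8, 197, 181 and 159. Every WD library exceeded every control, and control replicate 1, at 637, was the control nearest to WD. The difference of the log2 ratio was 1.36 within batch 1 (exact permutation p = 0.00794) and 2.81 against the batch 2 controls (exact permutation p = 0.00794).

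Rarres2 had 65.4, 51.2, 52.2 and 46.1 counts for each 1000 of Adipoq in batch 1 controls, 148, 188, 93.01, 211 and 79.7 in WD and 54.9, 17.3, 46.9, 50.8 and 30.4 in batch 2 controls. Again no WD library overlapped a control, with a difference of the log2 ratio of 1.62 against all 9 controls (exact permutation p = 0.000500, the smallest possible). No share of all genes is at hand to set beside this. Cfd had 1425, 828.8, 1117 and 128 counts for each 1000 of Adipoq in batch 1 controls and 271, 458, 349.6, 218 and 293 in WD. In batch 2 controls it had 1039.9, 936, 891, 727 and 1478, all above the WD libraries. Its log2 ratio differed by -1.68 from the batch 2 controls (exact permutation p = 0.00794) and by -1.06 within batch 1 (exact permutation p = 0.175), where control replicate 4 lay below all WD libraries. For Retn, Rbp4 and Nampt, which had not overlapped the batch 2 controls in CPM, the ratios overlapped, with differences of -0.46, 0.21 and 0.49 (exact permutation p = 0.0556, 0.333 and 0.0873). Angptl4 rose relative to Adipoq against the batch 2 controls, by 1.53 (exact permutation p = 0.00794), and within batch 1 the ratios overlapped, with 0.28 (exact permutation p = 0.675).

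**Figure D4:**
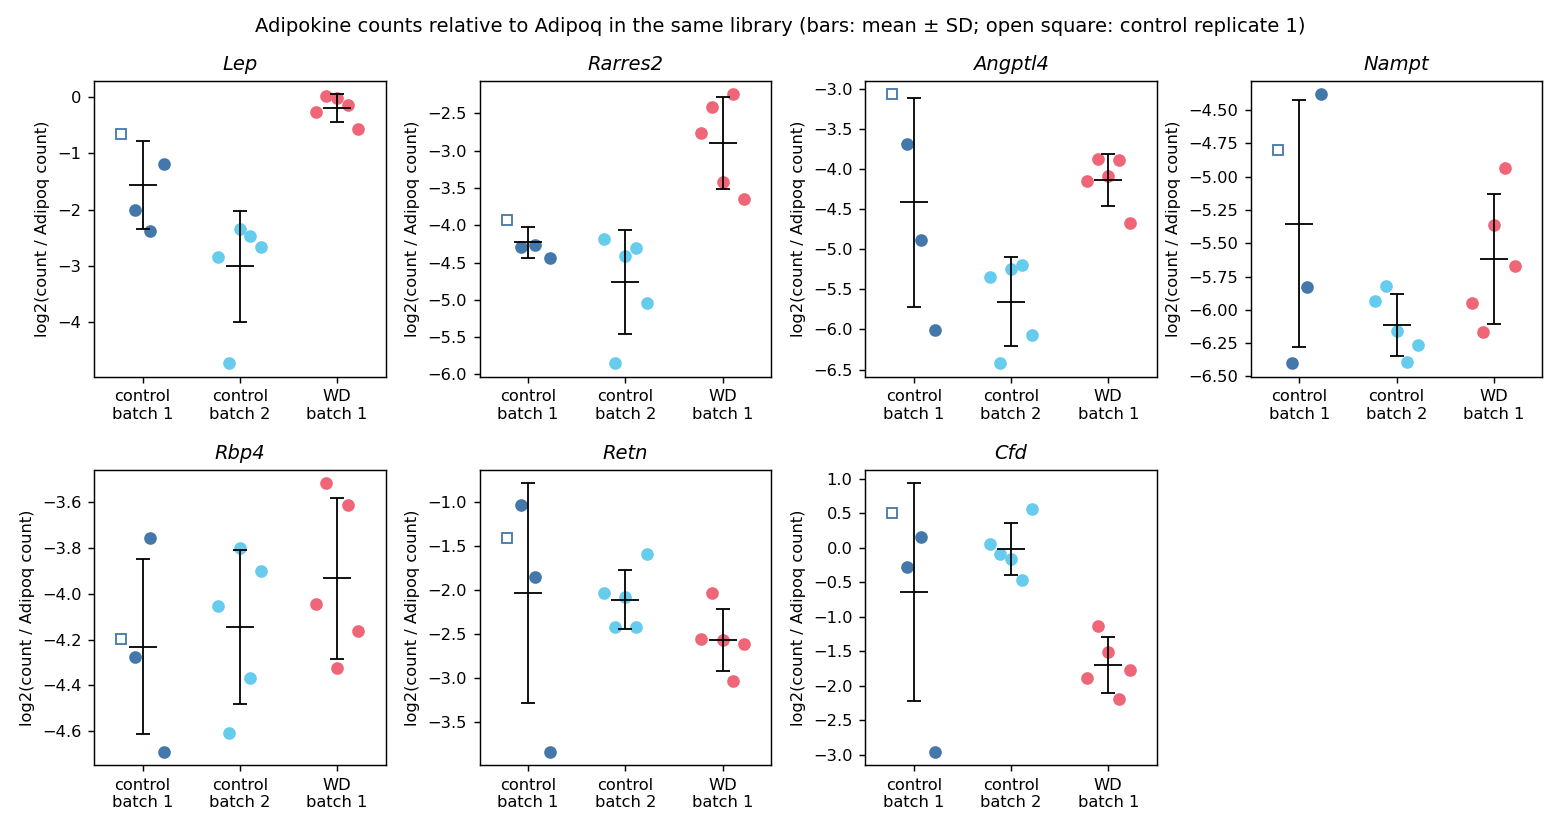
Log2 of each count divided by the Adipoq count of the same library, for 7 adipokine genes (points, one per library), with the group mean and SD (bars) and control replicate 1 as an open square. The WD libraries lie above all controls for Lep and Rarres2. For Cfd they lie below the batch 2 controls, and control replicate 4 lies below them.

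Factors known to act on adipokine transcription were listed as 9 genes, all tested. EdgeR called 0 of the 9 within batch 1 and against all controls, with 0 and 1 at an unadjusted p under 0.05, and 1, Klf15, against the batch 2 controls. Klf15, a factor that responds to glucocorticoids and fasting, was at 8.36 ± 4.66 CPM in WD, 26.6 ± 4.46 CPM in batch 2 controls and 21.96 ± 8.62 CPM in batch 1 controls, with -1.68 (standard error 0.44, FDR = 0.0281) against the batch 2 controls. Pparg and Cebpa, the main factors of adipocyte identity, named after their values were seen, did not pass there, with -0.70 (standard error 0.29, FDR = 0.204) and -0.59 (standard error 0.22, FDR = 0.147). The list's median was -0.59 against the batch 2 controls and -0.29 within batch 1, beside -0.00342 and 0.03 for all genes tested.

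The genes whose log2(CPM + 1) was most like that of an adipokine gene over the 14 libraries were sought among 7971 genes with a mean of at least 10 CPM. The libraries share batch, diet and the low adipocyte marker level of control replicate 1, so each Pearson r is a description only and is given also without that library. For Adipoq they were Nat8l (r = 0.974, and 0.936 without it), Car3 (r = 0.965, and 0.932 without it) and Plin1 (r = 0.960, and 0.894 without it). For Lep they were Lat2 (r = 0.967, and 0.953 without it), Rftn1 (r = 0.961, and 0.952 without it) and Taok3 (r = 0.948, and 0.927 without it). Plin1 is an adipocyte marker, and Lat2 an adaptor of immune cell receptors. For Cfd they were Agpat6 (r = 0.963, and 0.960 without it), Car5b (r = 0.944, and 0.947 without it) and Sfxn1 (r = 0.937, and 0.950 without it), and for Retn Slc1a3 (r = 0.960, and 0.958 without it), Utrn (r = 0.955, and 0.967 without it) and Sfxn1 (r = 0.955, and 0.943 without it). Sfxn1 stood in both lists. Rbp4 was closest to Cidec (r = 0.962, and 0.891 without it), Plin1 (r = 0.961, and 0.889 without it) and March5 (r = 0.955, and 0.869 without it). Nampt was closest to Tmem109 (r = 0.938, and 0.926 without it), Gm13363 (r = 0.923, and 0.858 without it) and Ppm1m (r = 0.910, and 0.838 without it). Rarres2 was closest to its overlapping partner, with Lrrc61 (r = 0.999, and 0.998 without it), Map7d1 (r = 0.962, and 0.872 without it) and Lgals1 (r = 0.938, and 0.774 without it), and Angptl4 to Cxx1a (r = 0.913, and 0.880 without it), Cxx1c (r = 0.910, and 0.876 without it) and Trpv2 (r = 0.904, and 0.867 without it). For Apln, at a few counts, they were Ppdpf (r = 0.869, and 0.855 without it), Serf2 (r = 0.813, and 0.793 without it) and Clip1 (r = 0.805, and 0.785 without it). The nearest genes depended on control replicate 1. When they were chosen without it, 0 of the 3 nearest were shared for Adipoq, Cfd, Rbp4 and Angptl4, 1 of 3 for Retn, Nampt, Rarres2 and Apln, and 2 of 3 for Lep. Those of Adipoq were then Lpin1 (r = 0.961, and 0.941 with it), Bhlhb9 (r = 0.952, and 0.627 with it) and Acadsb (r = 0.945, and 0.905 with it). Those of Rbp4 were Sdha (r = 0.976, and 0.632 with it), Mapk6 (r = 0.939, and 0.267 with it) and Pygl (r = 0.929, and 0.549 with it). Gm13363, a misc_RNA gene on chromosome 1, had 0.337 to 0.852 counts for each count of Nampt. The counts include multiple alignments, so that its likeness to Nampt is uncertain, and whether they share reads was not tested.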

How the data were processed

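The authors prepared QuantSeq 3′ mRNA libraries from eWAT RNA and sequenced them single-end. Per the labels' processing notes, Bowtie2, bedtools and the mm10 build were used, with FastQC and edgeR; no versions are given. The deposited counts are raw numbers of unique and multiple alignments per gene, with no normalization, and strand use is not given in the sources used here. The authors deposited log2 values as well, which differed from log2(CPM + 1) recomputed here with TMM factors by at most 0.0507. No molecular identifiers are mentioned. The labels number the samples and name no mouse, and p-values measure the spread between these samples.

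The diets were compared with edgeR 4.0.16 (quasi-likelihood test, TMM, filterByExpr, FDR threshold 0.05 over all genes tested) in R 4.3.3. The standard error is the log2 fold change divided by the square root of F. Alternatives were DESeq2 1.42.0, upper-quartile factors, library totals alone, scaling by 10 adipocyte markers, testing every gene with a count, testing only genes that reached a CPM of 1 in all libraries, batch as a covariate, a replicate block, and libraries left out. Single genes were compared by two-sided exact permutation tests with a pseudocount of 1 (alternative 0.1), in scipy 1.17.1 (Python 3.11.15, pandas 2.3.3, numpy 2.4.6), and plotted with matplotlib 3.10.9. The pipeline was tested on simulated counts in which 200 genes were changed by 3 on the log2 scale, up or down. EdgeR recovered 69 of the 200 within batch 1 and 108 against all 9 controls, with 4 and 1 wrong calls. A missing call in these comparisons therefore does not show that a gene was unchanged. Promoter sequences were matched by symbol to RefSeq for 7 of the 9 members, not for Rarres2 and Angptl4.

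The members and gene lists were chosen with earlier results of these data known. Named from each list were genes called in any comparison, up to 3 with the lowest FDR over the comparisons of diets, otherwise the 2 with the highest mean CPM, together with the 3 genes most like each member and the most abundant marker of each marker list. Gene positions are those deposited with the counts, and overlapped those of GENCODE for GRCm38 for 22097 of 22230 shared symbols. Genes overlapping a member were sought in GENCODE. All 14 libraries were at 0 for 5794 of the 23282 genes.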

Additional observations from a re-analysis of the deposited data

Results flagged for a closer look

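In 27 groups of 4 or 5 libraries, 1 for each of the 9 genes in each of the 3 groups, 4 held a library whose gap to its nearest neighbour, as a share of the group's range, passed Dixon's 95% critical value. Chance gives about 1 in 20 groups, here 1.35. Values are log2(CPM + 1). Adipoq was 9.79 in control replicate 1, against 12.6 to 12.9 in replicates 2 to 4. That library also had the epididymis genes and the lowest adipocyte markers, and their part in its value was not tested.

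Both flags in batch 2 fell on control replicate 6. Its Adipoq was 14.02, above the 13.5 of each other batch 2 control, and its Lep was 9.30, below their 10.6 to 11.1. Its Lep count was 37.8 for each 1000 counts of Adipoq, the lowest of the 14 libraries, while its adipocyte markers had a geometric mean of 1223 CPM, within the 1085 to 1254 CPM of the other batch 2 controls. Without it, the log2 fold change of Lep against the batch 2 controls was 1.08 (standard error 0.18, FDR = 0.00288) by edgeR. Apln was 0.59 in control replicate 3 and 0 in replicates 1, 2 and 4, a flag that rests on 6 counts.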

How the results depend on the processing

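The number of genes with an FDR under 0.05, and of adipokine genes among them, depended on the libraries and the tool. Within batch 1 (0 genes) it was 114 with DESeq2 and 108 without control replicates 1 and 4, with 2 adipokine genes in the latter, and 0 to 48 with 1 library left out. With all 9 controls (67 genes, 0 adipokine genes) it was 6 with scaling by adipocyte markers, 128 among genes that reached a CPM of 1 in all libraries (2 adipokine genes), 236 with DESeq2 (3), 619 without control replicates 1 and 4 (5), 1 with batch as a covariate (0), and 28 to 289 with 1 library left out (0 to 4). Leaving out control replicate 1 alone gave 190 genes and replicate 4 alone 289. Against the batch 2 controls (773 genes, 6 adipokine genes) it was 5303 with scaling by adipocyte markers (4), and 565 to 977 with 1 library left out (5 to 6). Between the controls (0 genes) it was 111 with DESeq2 and 0 to 2 with 1 library left out. The cause of these moves was not tested.

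With the replicate number as a block, only libraries whose number occurred in both diets were kept. Within batch 1 these were replicates 1 to 4 of each diet, and 0 of 11819 genes were called. From all 14 libraries they were replicates 1 to 5 of each diet, and 0 of 11818 genes were called. Control replicate 5 there came from batch 2, and control replicates 6 to 9 were left out. Rbp4 turned to 0.092 in that fit, and 0 adipokine genes were called in either. The labels do not say that the numbers pair the samples. Same-numbered control and WD libraries of batch 1 had correlations of deviations of -0.02, 0.04, 0.05 and 0.08. Control replicates 2 and 4 correlated best with their own number, and replicates 1 and 3 did not. So few and weak correlations cannot show whether the samples were paired.

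Log2 fold changes that changed sign were uncalled in the main test, except that of Nampt against the batch 2 controls, which became 0.14 with scaling by adipocyte markers. Within batch 1, Rbp4 was -0.0178 with library totals alone, and without control replicates 1 and 4 Rbp4 was -0.53 and Angptl4 -0.54. With all controls, Rbp4 was 0.10 with scaling by adipocyte markers and 0.0674 with batch as a covariate, and Angptl4 was -0.13 without control replicates 1 and 4. Between the controls, scaling by adipocyte markers gave Lep -1.25, Nampt -0.78, Rarres2 -0.20 and Angptl4 -1.20. There the filter at a CPM of 1 gave Lep -0.00211 and Angptl4 -0.0393, DESeq2 gave -0.0252 and -0.0636, and upper-quartile factors gave Angptl4 -0.0122.

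With 1 library left out, values ran within batch 1 from -0.51 to 0.021 for Adipoq, -0.27 to 0.53 for Rbp4, -0.77 to 0.25 for Nampt and -0.16 to 0.83 for Angptl4. With all controls Angptl4 ran from -0.00363 to 0.33, and against the batch 2 controls from -0.0139 to 0.18. Between the controls, Lep ran from -0.21 to 0.45 and Angptl4 from -0.24 to 0.76. In the exact permutation tests, leaving out control replicate 1 turned the batch 1 differences of Adipoq to -0.52 and of Rbp4 to -0.21. The ratio to Adipoq counts, added after the data were seen, turned Rbp4 to 0.25 and Nampt to 0.16 with all controls, and to 0.21 and 0.49 against the batch 2 controls.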

Other observations

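Other proteins that fat secretes were listed as 25 genes, of which 24 were found. EdgeR called 0 of the 20 tested within batch 1 and 0 of the 20 with all controls, where 5 and 7 had an unadjusted p under 0.05. Against the batch 2 controls it called 5 of the 19 tested, 4 higher and 1 lower in WD. Saa3, an acute-phase protein, was at 130.4 ± 38.2 CPM in WD, 14.003 ± 15.4 CPM in batch 2 controls and 33.1 ± 53.1 CPM in batch 1 controls, with 3.20 (standard error 0.52, FDR = 0.00118) against the batch 2 controls. Hp, haptoglobin, was at 4396 ± 2577 CPM, 1242 ± 363 CPM and 2353 ± 1832 CPM, with 1.81 (standard error 0.32, FDR = 0.00191). Agt, angiotensinogen, was lower, at 18.5 ± 11.1 CPM, 125 ± 33.4 CPM and 80.5 ± 64.01 CPM, with -2.78 (standard error 0.42, FDR = 0.000666) against the batch 2 controls and -2.13 (standard error 0.74, FDR = 0.631) within batch 1. The other calls were Metrnl, at 1.87 (standard error 0.47, FDR = 0.0221), and Il1rn, at 2.96 (standard error 0.71, FDR = 0.0176), named after their values were seen.

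Of the markers of other cell types, edgeR called 7 of 8 macrophage markers higher in WD against the batch 2 controls, 3 of 8 with all controls and 0 of 8 within batch 1, where 4 had an unadjusted p under 0.05. Csf1r, the most abundant of them, was at 405 to 904 CPM in WD, 55.2 to 246 CPM in batch 2 controls and 47.1 to 389 CPM in batch 1 controls. No tested marker of endothelium, stromal progenitors, mesothelium, brown or beige adipocytes, lymphocytes, muscle or erythrocytes was called in any comparison. Of 5 brown or beige markers, 2 were tested. Of 6 lymphocyte markers, 3 were tested within batch 1, 3 with all controls and 1 against the batch 2 controls. All those tested were fitted higher in WD, with 1, 2 and 1 at an unadjusted p under 0.05 in that order. The 6 summed to 105 CPM in WD replicate 3, the highest of all libraries. The most abundant markers of these cell types were Pecam1 at up to 127 CPM, Dcn at up to 3357 CPM, Lrrn4 at up to 74.7 CPM, Cidea at up to 17.3 CPM, Ms4a1 at up to 43.9 CPM, Acta1 at up to 157 CPM and Hbb-bs at up to 5148 CPM. Gpx5, the most abundant epididymis marker, was at 125035 CPM in control replicate 1 and at up to 38.1 CPM elsewhere.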
